A study of Rattus norvegicus with 98 samples.

Results

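The elements described here are 1600 windows of the rat genome in which the acetylated histone mark H3K27ac was found in neocortex and in few libraries of any other brain region. They were chosen from the presence of peaks alone. The genome of build Rn5 was divided into windows of 1000 bp on chromosomes 1 to 20, and a window was called occupied in a library when its peaks covered at least 500 bp of it. Windows were kept when they were occupied in at least 12 of the 16 libraries of prelimbic cortex (PLC), infralimbic cortex (ILC), cingulate cortex (CGC) and insular cortex (InsularCortex). They also had to be occupied in at most 7 of the 76 libraries of 20 other regions, with the 2 HB libraries left out of the choice. The 1600 windows were 0.563% of the 284178 windows occupied in any library, and 3.54% of the 45170 windows occupied in at least 12 neocortical libraries. These 45170 windows, of which the 1600 are part, serve as the background below.

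H3K27ac marks nucleosomes at active promoters and enhancers. Promoters tend to carry it in many tissues, whereas enhancers are more often acetylated in particular cell types, so that sets of acetylated elements tell tissues apart. Neocortex is built of layered glutamatergic projection neurons, GABAergic interneurons and glia. PLC, ILC and CGC lie on the medial wall of the frontal lobe and the insular cortex lies laterally, and all of them are studied for their part in mood and emotion. The mark was measured in bulk tissue, where a larger share of cells carrying a peak and a stronger peak in each cell cannot be told apart.

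The study profiled H3K27ac by chromatin immunoprecipitation and sequencing in male Long-Evans rats that were 2 months old when assigned to a treatment. Rats of the FT group drank water with fluoxetine, a selective serotonin reuptake inhibitor, for 6 weeks (18 mg/kg daily), and rats of the Sham group drank water only. The animals were naive and no allele was altered. Micropunches of several animals were pooled for each replicate, each treatment had 2 pools, and a replicate shared its animals across regions, so every neocortical area had 4 libraries. Nothing in the lists gives sequencing depth. The neocortical lists held 19378 to 54505 peaks. The FT lists were of similar length, with 48045 to 54505 peaks, while the Sham lists were spread from 19378 to 53135. The shortest were Sham ILC replicate 2 with 19378 peaks and Sham PLC replicate 2 with 19629. The number of windows chosen, their recovery from replicate 1 to 2 and the treatment and area fits are given with and without them. Other results, such as recovery between treatments and the differences per area, were not repeated without them. No genome sequence or annotation of Rn5 was used here. The windows are therefore given by position, with no gene, exon or sequence, and the tissue label could not be compared with marker genes.

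The 1600 windows formed 1409 loci when adjoining windows were joined. A single window made up 1220 loci, 187 loci held 2 windows and 2 loci held 3 windows. Within 100 kb of another locus lay 439 loci (31.2%), and 857 bins of 1 Mb held at least 1 member, against 2303 that held a background window. Most loci were thus single windows, and 1090 loci (77.4%) had another locus within 1000 kb. The spacing of background windows was not computed. The densest bin was 76 to 77 Mb on chromosome 17, where 12 of 56 background windows were members, and the bin before it held 10 of 21. In 1 bin of chromosome 3 (chr3:55000001-56000000), 11 of the 15 background windows were members, in 6 loci. Chromosome 9 had the highest rate, with 58.2 members per 1000 background windows, and chromosome 19 had the lowest, with 18.0.

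Elements shared with the rest of the brain lay at some distance from most members. Windows occupied in 90% or more of libraries numbered 23493. The median distance from a member to the nearest of them was 78 kb, with quartiles of 28.8 and 192 kb, and the rule keeps members out of that set. Over the 21875 background windows that are also outside it, the median was 22 kb, with quartiles of 5 and 73 kb. An adjoining window was occupied in at least 50% of the other libraries for 62 members (3.88%) and for 10861 (49.7%) of those 21875 windows. The rule set the absence of the window itself from other libraries, and because a peak often spans adjoining windows, it bears on these as well, so both contrasts are descriptions. The windows on either side of a member were occupied in 30.9% and 30.1% of neocortical libraries, and in 4.22% and 4.05% of the other libraries. Sets chosen by the same rule for dentate gyrus (3485 windows), nucleus accumbens (558) and amygdala (282) had medians of 74, 60 and 72 kb, close to the value in neocortex; these sets were not tested against each other.

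**Figure D1:**
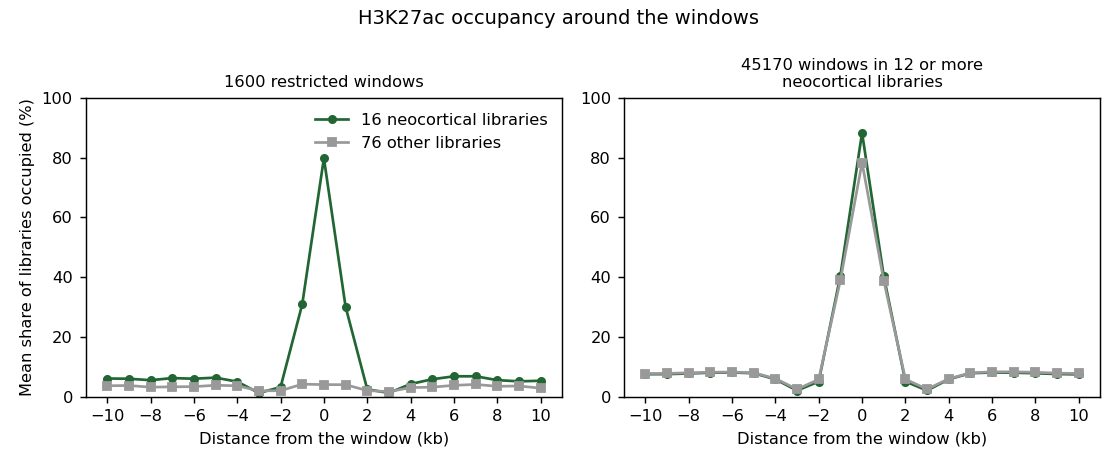
Mean share of libraries occupied (percent, y axis) in each 1 kb window from 10 kb before to 10 kb after the chosen window (x axis, kb), for the 1600 restricted windows (left) and the 45170 background windows (right). Around restricted windows the 76 other libraries stay below 5% throughout, whereas around background windows they follow the 16 neocortical libraries.

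The most complete member was a pair of adjoining windows on chromosome 9 (chr9:63447001-63449000), both occupied in 16 of 16 neocortical libraries. The strength of a peak was expressed as its percentile within its own list, where 100 is the peak with the highest filter score and a window without a peak counts as 0. The peak over this pair had a mean percentile of 88.1 ± 8.81 (SD, n = 16). It stood lowest, at 61.9, in Sham ILC replicate 2 and highest, at 95.6, in FT PLC replicate 1. Outside neocortex its left window was occupied in FT venDG replicate 2 alone, and its right window in no library.

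Full occupancy in neocortex was rare, with 11 members in all 16 libraries. Next in order after the chromosome 9 pair stood chr9:118373001-118374000, with a mean percentile of 67.0 ± 13.9 (SD, n = 16) and peaks in 2 other libraries. Its values ran from 26.4 in Sham PLC replicate 1 to 82.9 in FT PLC replicate 2. The window chr19:67261001-67262000 had 65.7 ± 10.7 and likewise 2 other libraries, FT NaCshell replicate 1 and FT CMA replicate 2. A window on chromosome 15 (chr15:33226001-33227000) had 59.7 ± 11.8, and its 3 other libraries were all of ventral dentate gyrus. The window chr9:38965001-38966000 had 53.2 ± 20.1, the widest spread of these 6, from 1.51 in Sham ILC replicate 2 to 79.5 in FT PLC replicate 2. With every list cut to the length of the shortest, the mean of the chromosome 9 pair was 77.6. Those of the other 4 windows, in the order given, were 32.1, 27.5, 20.9 and 12.7, since a peak cut from a list counts as 0.

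The longest loci were less complete. The locus chr1:10018001-10021000 held 3 members and had a mean percentile of 66.6. Its peak reached 94.0 in FT PLC replicate 1 and was missing from Sham PLC replicate 2 and Sham ILC replicate 2. A locus on chromosome 7 (chr7:124861001-124864000) also held 3 members, at a mean of 54.3, and was missing from the same 2 libraries. Among the loci of 2 windows, chr14:36332001-36334000 (74.3) had a peak in every neocortical library, the lowest at 23.7 in Sham PLC replicate 2. The locus chr2:142849001-142851000 (72.5) had no peak in Sham ILC replicate 2, and chr10:25790001-25792000 (71.0) had none in either of the shortest lists.

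Most members were near the neocortical threshold. Of the 1600, 798 were occupied in 12 neocortical libraries, 460 in 13, 263 in 14, 68 in 15 and 11 in 16. Just outside lay 911 windows with 11 neocortical and at most 7 other libraries. Examples just inside are chr1:10020001-10021000 and chr1:18471001-18472000, with 12 neocortical and 0 other libraries and mean percentiles of 61.9 and 31.4. Just outside, chr1:4868001-4869000 and chr1:7764001-7765000 had 11 and 0, with 38.5 and 17.4.

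The other threshold was less crowded. Members with 0 other libraries numbered 345 (21.6%), and between 156 and 199 members had each number from 1 to 7. With 8 other libraries there were 207 windows that met the neocortical threshold. Members such as chr1:44914001-44915000 (13 neocortical and 7 other libraries) and chr1:110131001-110132000 (12 and 7) fell just inside. The windows chr1:21083001-21084000 (13 and 8) and chr1:29294001-29295000 (14 and 8) fell just outside, at mean percentiles of 39.9 and 52.7 against 41.9 and 20.0.

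The 4 areas did not contribute alike. The insular libraries held between 98.7% and 99.0% of the members, and 1538 members had a peak in all 4 of them. CGC held 87.8% and 88.9% in Sham and 98.6% and 99.8% in FT. PLC held 99.4% and 99.8% in FT but 49.6% and 10.4% in Sham, and ILC held 97.4% and 97.9% in FT but 44.6% and 7.5% in Sham. Members were therefore present throughout FT neocortex and Sham insular cortex, and were mostly missing from the Sham lists of PLC and ILC. In the 12 neocortical libraries outside Sham PLC and Sham ILC, 1125 members (70.3%) were occupied throughout, against 38889 (86.1%) of the background windows. In 0 and in 1 of the 4 Sham PLC and Sham ILC libraries stood 430 (26.9%) and 664 (41.5%) members, against 5.97% and 20.8% of the background windows. The background was thinned in these lists too, with 75.7% and 33.5% of its windows in Sham PLC and 85.3% and 34.5% in Sham ILC. No member was missing from all libraries of PLC, CGC or InsularCortex, and 3 were missing from all libraries of ILC.

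**Figure D2:**
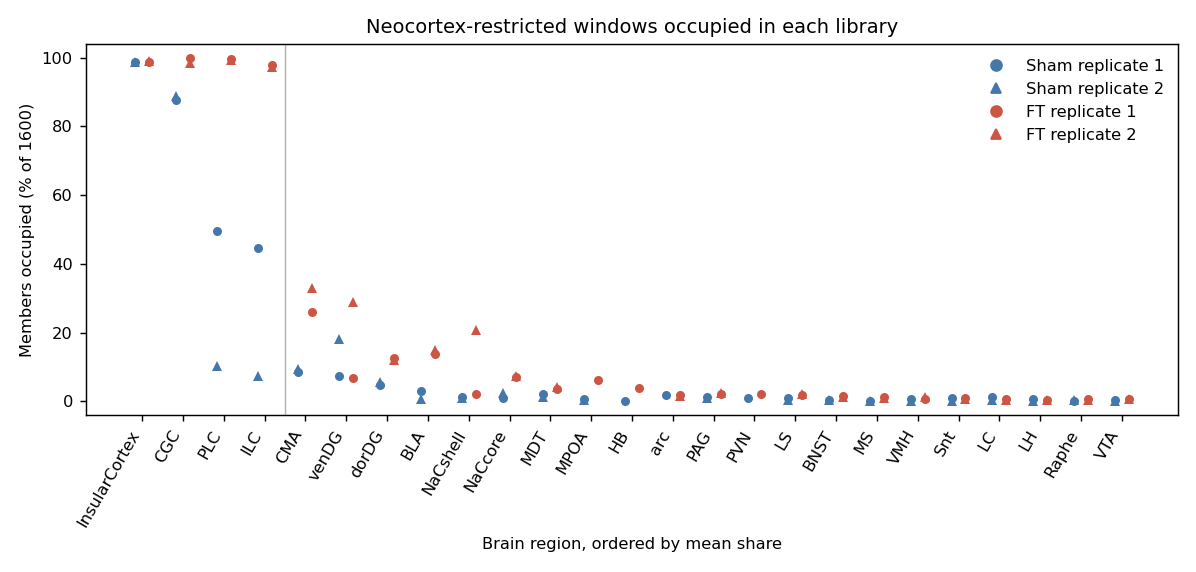
Share of the 1600 restricted windows that were occupied (percent, y axis) in each library, by region (x axis), with Sham in blue and FT in red, and a circle for replicate 1 and a triangle for replicate 2. Regions left of the grey line chose the windows; right of it CMA, at a mean of 19.3%, stands highest and VTA, at 0.406%, lowest.

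Outside neocortex, the shares of members were highest in a few forebrain regions, though every region held some. The mean share of members was 19.3 ± 12.3% (SD, n = 4) in CMA, the central medial amygdala, and 15.3 ± 10.5% in venDG, the ventral dentate gyrus. It was 8.80 ± 4.19% in dorDG, the dorsal dentate gyrus, and 8.11 ± 7.38% in BLA, the basolateral amygdala. NaCshell and NaCcore, the shell and core of the nucleus accumbens, had 6.33 ± 9.67% and 4.45 ± 3.19%. Without FT NaCshell replicate 2, at 20.8%, the mean of NaCshell was 1.5 ± 0.676% (SD, n = 3), below that of NaCcore. In the other 14 regions the mean was 2.88% or less, falling to 0.406 ± 0.272% in VTA. By comparison, each of these regions outside neocortex held between 66.0% and 89.0% of the background windows, with the lowest in PAG and the highest in CMA. Neighbours in this order overlapped in their spread, and the rule bounded all of these shares from above.

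Of the 4961 member and library pairs outside neocortex, 35.4% were in amygdala, 31.1% in dentate gyrus and 13.9% in accumbens. At least 1 library of these regions held 1164 members (72.8%), and 461 members (28.8%) were occupied in some library of another region. Peaks in both amygdala and dentate gyrus were seen for 336 members. CMA was the only other region for 103 members and venDG for 102. FT libraries made up 73.7% of the pairs. None of these shares of pairs and members was computed over the background windows, so an excess over the background is not shown. In CMA, the FT libraries held 418 and 530 members and the Sham libraries 137 and 151. Of the background windows, the FT libraries of CMA held 91.4% and 94.2% and the Sham libraries 82.9% and 87.3%. The FT lists were also longer, at 48863 and 53716 peaks against 38423 and 40660, and the part of list length in the difference of members was not tested. In venDG, Sham held 118 and 291 and FT held 110 and 463, so the treatments overlapped.

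The libraries labelled HB were left out of the choice. They are not independent of it, since a replicate shared its animals across regions. FT HB replicate 1 held 65 members (4.06%), while it held 85.7% of the background windows. Sham HB replicate 1 held 4 members (0.25%), but it held only 0.308% of the background windows, so this list stood apart from all others and bears little on the members.

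Choice and lookup were also separated by pool of animals. Applied to the replicate 1 libraries alone, the same shares chose 3025 windows, and 1174 of them (38.8%) met both shares in the replicate 2 libraries. Among the 51309 windows that met the neocortical share in replicate 1, 2.45% met both in replicate 2. The chosen windows were occupied in 67.9% of the neocortical libraries and 6.83% of the other libraries of replicate 2, where the background stood at 72.3% in the other libraries. Without the 2 shortest lists, the recovered share rose to 56.8%, against 3.61% in the background. In the opposite direction, the same 1174 windows were 66.0% of the 1778 chosen, against 3.86% in the background. From replicate 1 to 2, 69.5% of the chosen windows met the limit on other libraries, against 4.47% of the background. The neocortical share was met by 57.4%, against 81.8%. From replicate 2 to 1 the limit was met by 93.3%, against 5.31%, and the neocortical share by 70.6%, against 93.3%. Absence from other regions thus carried over to the other pools for most chosen windows. The neocortical share was met less often than in the background.

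Recovery between treatments was lopsided. Of 579 windows chosen in Sham, 263 (45.4%) met both shares in FT, against 0.867% in the background. The neocortical share was met by 97.4% of them and by 99.4% of the background. Of 4554 windows chosen in FT, the same 263 (5.78%) met both in Sham, against 0.880%. Of these FT windows, 97.7% stayed within the limit on other libraries in Sham, against 12.2% of the background, and 5.99% met the neocortical share there, against 48.9%. The Sham side includes the 2 shortest lists, Sham PLC replicate 2 (19629 peaks) and Sham ILC replicate 2 (19378 peaks). These held 10.4% and 7.5% of the members. Recovery between treatments was not repeated without them, and the part of list length in it was not tested.

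Peaks over members stood lower in neocortex than those over the background windows. In each neocortical library, the median percentile of the occupied members lay between 29.4 and 67.6, and that of the background windows between 68.9 and 78.1. In Sham the member medians ran from 29.4 to 61.7 with a median of 40.9, and in FT from 52.7 to 67.6 with a median of 56.2. The members' median −log10 p of the authors ran from 5.16 to 23.3, against 8.9 to 43.2 in the background. Their peaks were 1000 to 2000 bp wide at the median, against 1300 to 2100 bp. In none of the 16 libraries did the member median reach that of the background. These medians cover only the occupied members, from 120 in Sham ILC replicate 2 to 1597 in FT CGC replicate 1. The rule drew on the presence of peaks in the same lists, and 798 of the 1600 members stood at exactly 12 neocortical libraries. Strength was not compared at equal occupancy, so this contrast is a description. Peaks of restricted windows in accumbens and dentate gyrus stood at similar percentiles, with a median over libraries of 50.0 and 49.6 against 55.3 in neocortex, and amygdala stood at 36.1. These sets also come from different libraries.

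**Figure D3:**
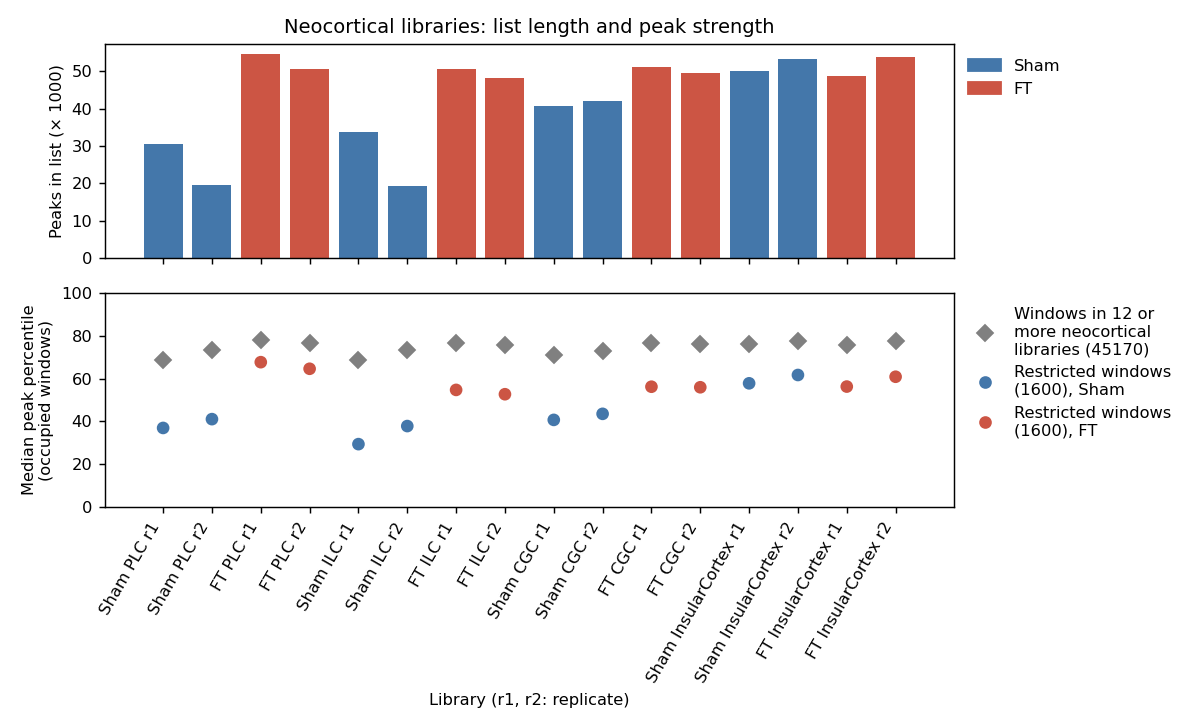
Length of each neocortical list (top, 1000 peaks, bars from 0) and the median percentile of peaks over occupied windows (bottom) for the 1600 restricted windows (circles, Sham blue and FT red) and the 45170 background windows (grey diamonds). Circles lie below diamonds in all 16 libraries, and the lowest, at 29.4, is Sham ILC replicate 1.

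The first comparison asked whether peak strength at these elements differed between FT and Sham. Percentiles of all 45170 background windows in the 16 libraries were fitted with limma, with terms for area and treatment and Benjamini-Hochberg adjustment over all windows. The rule counted peaks in these same 16 libraries without regard to treatment, and a missing peak enters the fit as 0. With 798 members at exactly 12 libraries and 1464 in all 8 FT libraries, most members met the rule with more FT than Sham libraries, so the counts are a description and support nothing about the members. The median difference was 28.5 percentile points higher in FT for the members, and 19.4 for the background. At an adjusted p under 0.05, 899 members (56.2%) were higher in FT and 0 were lower in limma (0 also at an unadjusted p under 0.05). In the background, 17.3% of windows were higher and 0.0244% lower. More FT than Sham libraries were occupied at 1569 members, as many at 29 and fewer at 2. The share with more FT libraries was 98.1% of members and 78.9% of all tested windows.

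The calls changed with the libraries and lists used. Without Sham PLC replicate 2 and Sham ILC replicate 2, limma called 0 of all 45170 windows, and 1108 members were higher and 0 lower at an unadjusted p under 0.05. The median difference was then 21.7 points for members and 7.64 for the background. With every list cut to its 19378 best peaks, limma called 0 members and 1 of all 45170 windows. At an unadjusted p under 0.05, 333 members were higher and 5 lower, and the medians were 2.33 and 2.23. That cut leaves 555 to 924 members with a peak in the FT libraries and 120 to 737 in the Sham libraries, so most values are 0 and the fit says little about the members. Leaving out FT replicate 1 or FT replicate 2 also left 0 calls over all 45170 windows, with 1015 and 1000 members higher and 0 lower at an unadjusted p under 0.05. Counts at an unadjusted p were not made over the background, here or in the area comparison below. Without Sham replicate 1 there were 105 calls among members, of 1569 over all 45170 windows. Without Sham replicate 2 there were 406, of 5207. For 2 pools against 2 the smallest exact two-sided p is 0.333, and areas of a pool share animals, so p-values of this fit bear on these pools.

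The difference was unequal among areas. In PLC the median FT minus Sham difference of the members was 53.7 points, and 99.3% of members were higher in FT. In ILC it was 44.0 points and in CGC 15.9 points, while in InsularCortex it was −1.12 points, with 43.2% of members higher in FT. The background medians were 40.7, 34.7, 4.28 and 0.0571 in the same order. List length moved with these values, with Sham lists of 19629 and 30577 peaks in PLC, 19378 and 33606 in ILC, 40597 and 42094 in CGC and 50041 and 53135 in InsularCortex. In CGC and InsularCortex alone, limma called 0 of all 45170 windows. Of the members, 188 were higher and 7 lower at an unadjusted p under 0.05, and their median difference was 7.30 points against 2.18 in the background. In equal-size lists the median member differed by 6.21 points in PLC and by 0 in the other areas. In ILC, CGC and InsularCortex the median FT level is itself 0 after the cut, so a difference of 0 there carries no information.

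**Figure D4:**
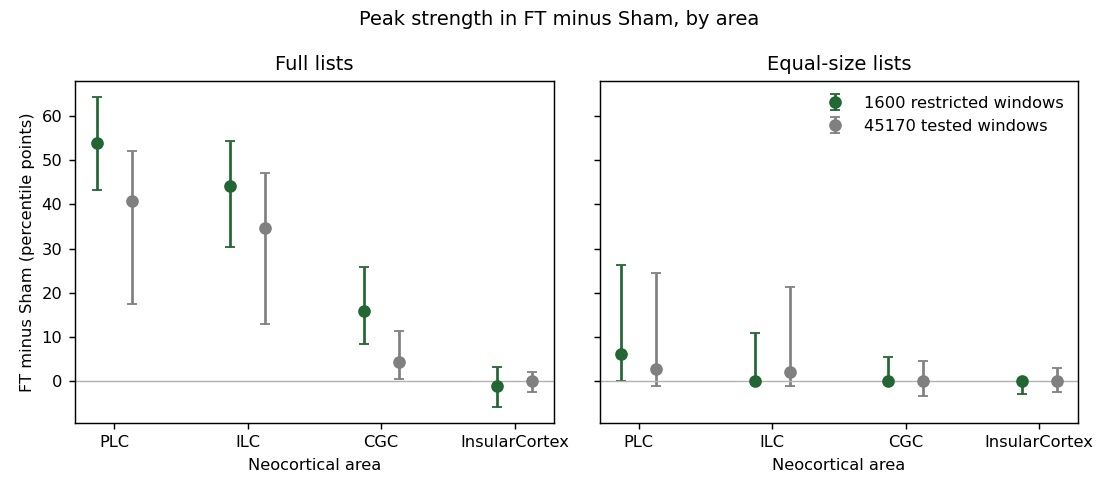
FT minus Sham difference of peak strength (percentile points, y axis) in each neocortical area (x axis), for full lists (left) and lists cut to equal size (right). Points are medians over windows and bars their quartiles, for the 1600 restricted windows (green) and the 45170 tested windows (grey); in full lists the green median falls from 53.7 in PLC to −1.12 in InsularCortex.

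Members also differed in how many neocortical libraries held them. Among windows occupied in exactly 12, 508 of 798 members (63.7%) and 46.9% of the 5803 other windows were called higher in FT. At 13 libraries the shares were 55.9% and 30.1%, at 14 they were 44.5% and 10.4%, at 15 they were 19.1% and 3.69%, and at 16 they were 36.4% (4 of 11 members) and 3.00%. These counts share the calls of the full lists and carry their limits.

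The lowest p among members was that of chr8:28359001-28360000, found in 12 neocortical and 3 other libraries. In FT its percentiles ran from 21.4 to 49.3 with a median of 40.8, and in Sham from 0 to 28.2 with a median of 0.245. The groups overlapped, through Sham InsularCortex replicate 1. It was higher in FT by 33.1 ± 4.27 points (SE; limma, adjusted p = 0.0252). Over 11 alternatives its adjusted p ran from 0.00599 to 1. The rule drew on the same 16 libraries and a missing peak enters the fit as 0. The differences of this and the next named windows are therefore descriptions.

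At chr1:251557001-251558000, FT percentiles ran from 58.6 to 68.9 and Sham percentiles from 0 to 49.0, so that the groups did not overlap. The limma difference was 42.2 ± 5.58 points (SE, adjusted p = 0.0252, and 0.00697 to 0.703 over the alternatives). Groups were likewise separate at chr2:278038001-278039000, with 40.8 to 61.2 in FT and 0 to 33.3 in Sham, at a limma difference of 39.0 ± 5.17 points (SE, adjusted p = 0.0252, and 0.00697 to 0.825 over the alternatives). Each of these 3 windows lost its call under 5 of the 11 alternatives.

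Toward lower values in FT, no member passed the test. The lowest p belonged to chr1:213260001-213261000, where FT ran from 0 to 30.5 with a median of 8.9 and Sham from 0 to 43.0 with a median of 25.6. The limma difference was −10.4 ± 5.86 points (SE, adjusted p = 0.165, and 0.087 to 0.851 over the alternatives). It was followed by chr5:89597001-89598000 (−2.21 ± 4.67, adjusted p = 0.673 in limma) and chr8:1137001-1138000 (−4.64 ± 9.84, adjusted p = 0.674), where the FT and Sham values overlapped.

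The second comparison set insular cortex against the mean of PLC, ILC and CGC in the same fit. Members stood higher in InsularCortex by a median of 20.4 points, against 13.3 in the background. The rule drew on the same libraries, so this is a description as well. With equal-size lists, which leave most members at 0, the medians were 0 and 0.931, and against CGC alone they were 10.9 and 1.62. At an adjusted p under 0.05 in limma, 14 members (0.875%) were higher and 0 were lower, with 703 and 15 at an unadjusted p under 0.05. In the background 0.217% were higher and 0.00221% lower. With the replicate number as a block, 8 members were called, of 65 called over all 45170 windows. Without the 2 shortest lists, 48 members were higher and 5 lower, against 558 and 205 over all 45170 windows. Against CGC alone limma called 0 of all 45170 windows, with 506 members higher and 46 lower at an unadjusted p under 0.05.

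The count also changed with the pool left out, as 0 members were called without Sham replicate 1, FT replicate 1 or FT replicate 2 in limma, with 278, 837 and 668 higher and 16, 3 and 4 lower at an unadjusted p under 0.05. Over all 45170 windows, 1, 0 and 0 were called in the same order. Without Sham replicate 2, 7 were higher and 4 lower, against 81 and 99 over all 45170 windows.

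In the window chr8:40043001-40044000, the 4 insular libraries ran from 55.6 to 70.5 and the 12 medial libraries from 0 to 49.8, and these ranges did not overlap. The limma difference was 44.6 ± 6.09 points (SE, adjusted p = 0.0216, and 0.000911 to 0.33 over 10 alternatives). At chr10:25834001-25835000 the insular values lay between 67.4 and 78.8 and the medial values between 0 and 66.9, again separate, and 4 medial values were 0. The difference was 42.8 ± 6.19 points (SE; limma, adjusted p = 0.0259, and 0.00142 to 0.386 over the alternatives). Its CGC values, of 53.0 to 66.9, were closest to the insular ones.

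The insular values at chr7:53317001-53318000, 76.6 to 86.6, overlapped a medial range of 0 to 79.6. Its limma difference was 45.8 ± 6.77 points (SE, adjusted p = 0.0259, and 0.000436 to 0.427 over the alternatives). The window chr8:123323001-123324000 was occupied in 13 neocortical and 0 other libraries. Insular percentiles of 70.4 to 74.9 lay within a medial range of 0 to 75.8, whose highest value was that of Sham PLC replicate 2. It differed by 42.5 ± 6.61 points (SE; limma, adjusted p = 0.0328, and 0.00247 to 0.463 over the alternatives). Each of these 4 windows lost its call under 5 of 10 alternatives.

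Some members leaned the other way without passing the test. The rule drew on the same libraries, so the differences of the windows named for either direction are descriptions. At chr4:181550001-181551000, 3 insular libraries had no peak and FT InsularCortex replicate 2 stood at 30.1, while the medial libraries ran from 0 to 78.2 with a median of 63.8. The limma difference was −52.1 ± 9.83 points (SE, adjusted p = 0.0533, and 0.00353 to 0.452 over the alternatives). The window chr15:33226001-33227000, occupied in all 16 libraries, had insular values of 29.8 to 52.1 and medial values of 47.2 to 71.1. Its difference was −20.6 ± 5.03 points (SE; limma, adjusted p = 0.0969, and 0.0231 to 0.534 over the alternatives), and the ranges overlapped through Sham PLC replicate 2 and Sham InsularCortex replicates.

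At chr2:278326001-278327000 the medial median was 75.1 and 3 insular libraries had no peak, with 58.2 in Sham InsularCortex replicate 2. It differed by −56.3 ± 14.5 points (SE; limma, adjusted p = 0.109, and 3.65e-05 to 0.588 over the alternatives). The window chr20:21783001-21784000 had insular values of 0 to 18.8 and medial values of 0 to 58.5, and differed by −27.3 ± 8.89 points (SE; limma, adjusted p = 0.176, and 0.106 to 0.651 over the alternatives).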

How the data were processed

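H3K27ac peak lists of 94 libraries (47 Sham, 47 FT, 25 regions) were analysed; the 4 pooled inputs entered no comparison. The authors aligned reads to the rat genome and called peaks with DFilter in each library separately. The submitters' processing notes name BWA and rn5, with no version, and that of DFilter is not stated in the sources used here. The authors deposited for each peak its position, the highest filter score, a −log10 p-value (4 to 200), a normalised tag count rounded to a whole number, kept here as a score, and a false discovery rate in percent, which was 0 throughout and not used. Depth is unknown. Starts were read as counting from 0 and are printed from 1.

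Members, windows and lists were chosen with earlier results of these data known. Scores served only to rank peaks within a list, since they depend on the library. Percentiles were fitted with limma 3.58.1 (R 4.3.3) on the 45170 windows occupied in at least 12 neocortical libraries. Window assignment used Python 3.11.15 with numpy 2.4.6 and pandas 2.3.3, and figures matplotlib 3.10.9. Rule and fit were tested on simulated data. The study compared read counts per peak, which peak lists do not hold. Named windows were the 6 loci with most windows, the 6 windows in most neocortical and then fewest other libraries, the 3 (treatment) and 4 (area) lowest p in each direction, and the first 2 on each side of each threshold.

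Sham and FT samples of the same replicate were processed in parallel, so the replicate number was fitted as a block in an alternative. Deviations of same-numbered samples correlated between −0.0412 and 0.0199 in the 4 areas. Other alternatives changed peak coverage, list length, threshold, grid, shares, ranking, filter and pools; leaving out the 2 shortest lists, or PLC and ILC, was chosen after seeing the data.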

Additional observations from a re-analysis of the deposited data

Results flagged for a closer look

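In the nucleus accumbens shell, FT NaCshell replicate 2 held 333 members, and the other libraries of that region held 15 to 36. Its list of 49521 peaks was the longest of the region, where the others held 24429 to 29100. Of 23 groups examined for a library far from the rest, this 1 was flagged, and chance flags about 1 in 20.

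The FT minus Sham difference in InsularCortex was compared with that in PLC, ILC and CGC by an interaction term in limma. It differed at 2 members (0.125%), both with the lower difference in InsularCortex, and at 8 windows (0.0177%) in the background. They were named after their values were seen. At chr9:110072001-110073000, insular values were 20.1 to 24.8 in FT and 45.5 to 55.0 in Sham, and medial values were 37.8 to 46.0 in FT and 0 to 8.44 in Sham (interaction −66.9 ± 5.93 points, SE, adjusted p = 0.00682 in limma). At chr8:129307001-129308000 they were 26.2 to 46.2 and 54.3 to 57.1, and 51.8 to 81.5 and 0 to 22.6 (interaction −84.7 ± 10.7 points, SE, adjusted p = 0.0466 in limma). The medial Sham values include the shortest lists, and the part of list length in these differences was not tested. The rule drew on the same 16 libraries and a missing peak enters the fit as 0, so this comparison is a description as well.

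On chromosome X, which the rule did not cover, 18 of the 1087 windows occupied in at least 12 neocortical libraries (1.66%) met the same shares.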

How the results depend on the processing

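The number of restricted windows, 1600, was 1203 with a stricter peak threshold, 1634 on a shifted grid, 1749 with equal weight per region and 1588 with HB included. It was 2634 when any overlap of 100 bp counted, 464 when whole windows had to be covered, 702 with windows of 2 kb, 1 with the strictest shares, and 883 with equal-size lists, of which 246 were members. Without 1 pool it was 916 to 2821, and without the 2 shortest lists 2442, of which 1599 were members. Recovery, 38.8%, was 66.0% from replicate 2 to 1, 45.4% from Sham to FT, 5.78% from FT to Sham and 56.8% without the 2 shortest lists. Treatment calls among members were 899 (in brackets over all tested windows, 7826). They were 762 (7024) when ranked by tag count, 605 (9734 of 139092) without a filter and 716 (5874) with the replicate block. Over pool means they were 570 (4497). They were 0 (1) with equal-size lists, and 0 (0) without the 2 shortest lists or in CGC and InsularCortex alone. Leaving out 1 pool gave 0 to 406 (0 to 5207). Area calls among members were 14 (99). They were 44 (208) when ranked by tag count, 109 (1265) with equal-size lists and 156 (7352 of 139092) without a filter. Without the 2 shortest lists they were 53 (763), and with the replicate block 8 (65). They were 0 (0) with CGC and InsularCortex alone, and 0 to 11 (0 to 180) without 1 pool. Over all tested windows, the block took those lower in FT from 11 to 22 and area calls from 99 to 65. It left the members' treatment count within 1.5 times. The direction turned at chr5:89597001-89598000 (1.98 points by tag count, 1.88 without Sham replicate 2, 0.293 without FT replicate 1; −6.30 to 1.88 without 1 pool) and at chr8:1137001-1138000 (0.95 without Sham replicate 2; −10.2 to 0.95 without 1 pool), none of them called. For the differences of single windows, 97 alternatives left direction and call as they were, 35 lost a call, 10 gained one and 4 turned the direction. The gained calls were lower in InsularCortex, at chr4:181550001-181551000, chr15:33226001-33227000 and chr2:278326001-278327000. Mean percentiles moved by over 1 SD in 7 of 12 alternatives. The cause of these changes was not tested. Depth is unknown, so a peak missing from a short list is not shown to be absent from the tissue.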
